A study of Mus musculus with 16 samples.

Results

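Cardiac fibroblasts that had lost Tcf21 were compared with control fibroblasts after both had been exposed to a fibrotic stimulus in the living heart. The experiment held 5 of the 16 libraries of the series, chosen as all libraries of 1 deposited table. In 3 control libraries the mice had the genotype Tcf21-MerCreMer, in which tamoxifen-activated Cre is made from the Tcf21 locus. In 2 loss libraries the mice were Tcf21-MerCreMer:Tcf21-fl, and the series' design states that the floxed allele was carried as fl/fl. Mice of both groups were 8 to 12 weeks old, received tamoxifen, carried a Rosa26 green fluorescent reporter behind a loxP stop cassette, and were then infused without pause with angiotensin II and phenylephrine for 1 week. Reporter-positive cells were isolated by flow cytometry, and this reporter marks cells in which Cre had been active. Because Cre comes from Tcf21 itself, the controls also carry an altered Tcf21 locus. The labels do not say whether libraries of a group came from separate mice, so that each p-value reflects the spread from library to library alone, and this spread may be technical.

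TCF21 is a basic helix-loop-helix transcription factor that binds E-box sequences as a dimer with ubiquitous E proteins, and it is needed for the formation of cardiac fibroblasts in the embryo. In the adult heart it marks resting fibroblasts, and its level falls as fibroblasts become activated. Angiotensin II and phenylephrine raise blood pressure and act on fibroblasts and muscle cells, and under such stress fibroblasts divide, secrete collagen and other matrix, and partly acquire contractile genes.

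Values are the authors' normalized counts, that is, estimated counts divided by a factor for each library. They summed to between 27814940 and 29753206 per library, and Pearson's r between libraries was 0.954 to 0.982 on the log2 scale. All 12 fibroblast markers were measured, with a summed level of 3102580 to 3522700 normalized counts in the controls and 3276900 and 3790100 after loss, and none passed the test (median log2 fold change 0.00). Genes with a mean of at least 10 were tested on log2(value + 1) with limma, and a gene was called where the Benjamini-Hochberg adjusted p over all genes tested was below 0.05. Fold changes are on that log2(value + 1) scale and understate the change of low genes. In sorted bulk RNA, fewer cells of a type and less RNA per cell cannot be told apart.

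Tcf21 itself was low in both loss libraries. The controls held 2814, 1802 and 1509.8 normalized counts and the loss libraries 258 and 185. The groups did not overlap, and control 1 held the most among the controls. The gene (ENSMUSG00000045680, minus strand of chromosome 10, 22817281 to 22820174 in GRCm38) was 8.98-fold lower after loss (log2 fold change -3.17, SE 0.276, adjusted p = 0.00494). Without loss library 1 or loss library 2 the adjusted p was 0.0519 and 0.0792, in the same direction. Its E-protein partners were not called: Tcf3 had a log2 fold change of 0.06, Tcf12 of -0.10 and Tcf4 of -0.17.

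Over the whole transcriptome, 135 of 14799 tested genes (0.912%) were called during infusion, 48 higher (0.324%) and 87 lower (0.588%) after loss. Of these, 42 have gene-model or pseudogene names and 93 have other names. The number called depended on single libraries: it was 48 without control 2, 42 without loss library 1 and 32 without loss library 2, against 121 without control 1 and 175 without control 3. Of the 135 genes, 93, 46 and 105 were called again without control 1, 2 and 3, and 32 and 26 without loss library 1 and 2. There were 22 called genes that passed in all 5 of these fits and 20 that passed in none. A complete separation of the 2 groups was common among all genes, with 5180 tested genes (35%) not overlapping, 2560 higher (17.3%) and 2620 lower (17.7%). Of all tested genes 50% lay above the control mean. The percentages of non-overlapping members in the gene groups described next are shares of the tested members, to be read against these shares of all genes.

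**Figure D1:**
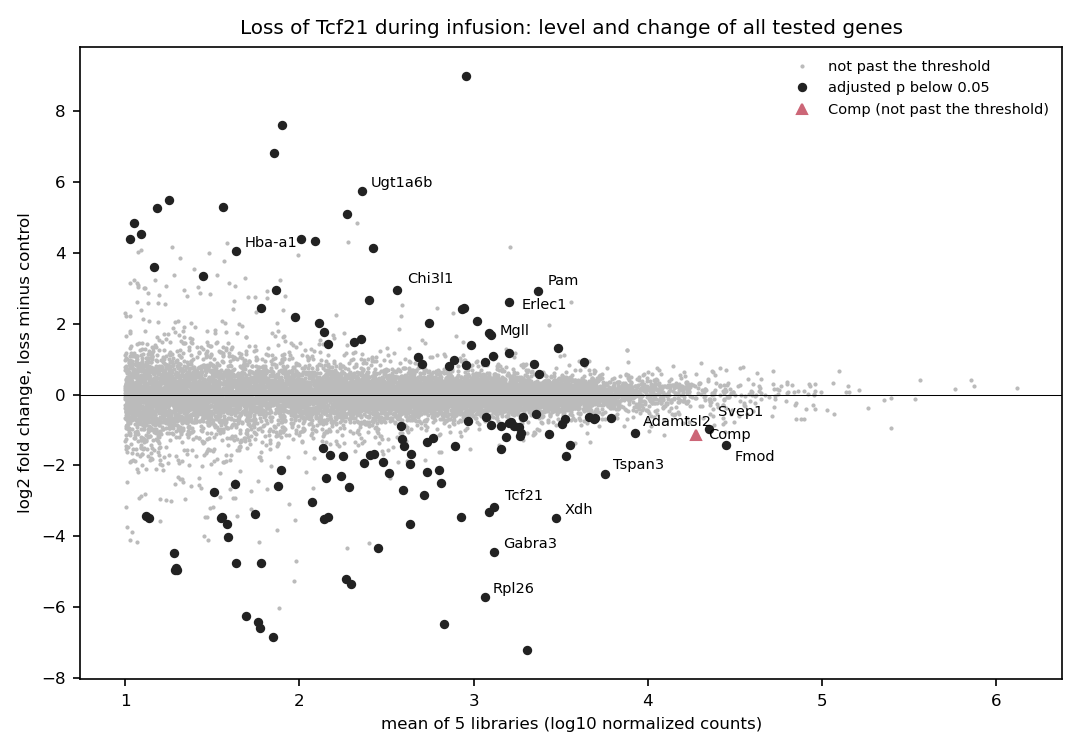
Each point is a tested gene, with the mean of the 5 infused libraries on the horizontal axis (log10 normalized counts) and the log2 fold change (loss minus control) on the vertical axis. Black points are the 135 genes past an adjusted p of 0.05, and the triangle marks Comp, which did not pass; Fmod, Svep1 and Adamtsl2 lie at the abundant end among the genes that fell.

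On the lists of extracellular matrix genes, the called changes were all decreases. Fmod, Svep1, Adamtsl2 and Fbln2 fell, while the fibrillar collagens and periostin did not pass the test. Fmod encodes fibromodulin, a small leucine-rich proteoglycan that binds collagen fibrils. Adamtsl2 encodes a secreted ADAMTS-like glycoprotein that binds fibrillin microfibrils and lacks protease activity. Svep1 encodes a very large extracellular protein with many complement-control and EGF-like repeats.

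The 250 bases before the start of Adamtsl2 and Fmod are shown for 2 of these 4 called matrix genes, because E-boxes are the sites that TCF21 and related factors bind. Capitals mark each match to CANNTG, which reads the same on both strands. Both are on the plus strand of GRCm38.p6 (RefSeq), at chr2:27079129-27079378 for Adamtsl2 and chr1:134037004-134037253 for Fmod.
Adamtsl2: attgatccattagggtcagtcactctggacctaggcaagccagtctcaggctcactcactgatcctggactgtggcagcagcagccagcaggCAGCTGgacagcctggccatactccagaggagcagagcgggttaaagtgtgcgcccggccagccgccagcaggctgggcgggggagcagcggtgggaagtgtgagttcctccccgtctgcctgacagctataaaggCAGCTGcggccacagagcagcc
Fmod: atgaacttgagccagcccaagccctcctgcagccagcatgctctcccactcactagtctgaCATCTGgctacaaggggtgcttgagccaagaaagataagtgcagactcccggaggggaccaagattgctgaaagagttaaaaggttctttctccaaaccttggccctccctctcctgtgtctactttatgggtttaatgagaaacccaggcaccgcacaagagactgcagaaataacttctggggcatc
The window of Adamtsl2 holds 2 matches, both of them CAGCTG, and that of Fmod holds 1 match and 0 of the CAGCTG form. Of 27025 promoter windows of the same length, 66.0% hold at least 1 CANNTG and 12.8% hold CAGCTG, so that a match to the wider motif is common. A match is a description of the letters and not of a bound site.

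Fmod held 30836, 36817 and 45490 normalized counts in the controls and 14535 and 13433 after loss. Every control lay above both loss libraries, by more than the spread within either group. It was 2.66-fold lower (log2 fold change -1.41, SE 0.178, adjusted p = 0.0236), but the adjusted p was 0.145 without control 2, 0.132 without loss library 1 and 0.232 without loss library 2.

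Adamtsl2 had a narrow spread, at 11075, 10298 and 10615 normalized counts in the controls and 5434 and 4737 after loss. The 2.10-fold difference (log2 fold change -1.07, SE 0.101, adjusted p = 0.00659) was lost without control 2 (adjusted p = 0.0578) and without loss library 2 (0.0823). Svep1 held 25094, 30159 and 28668 against 16128 and 12630 normalized counts, again without overlap. It was 1.95-fold lower (log2 fold change -0.97, adjusted p = 0.0477) and close to the threshold: without control 2, control 3, loss library 1 and loss library 2 the adjusted p was 0.229, 0.0652, 0.0971 and 0.324. Its adjusted p was also 0.0578 with rescaled libraries and 0.0712 with quantile normalization.

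Of 60 tested proteoglycans and matrix glycoproteins, 0 rose, 2 fell and 58 did not pass, with a median log2 fold change of -0.18, against 0.00 for all tested genes. In this list 17 members (28.3%, against 17.7% of all genes) were non-overlapping and lower, and 6 (10%, against 17.3%) were non-overlapping and higher. Comp, the cartilage oligomeric matrix protein, just missed the threshold. It held 19610, 22778 and 30295 normalized counts in the controls and 10868 and 10735 after loss, 2.21-fold less without overlap (log2 fold change -1.14, SE 0.186, adjusted p = 0.0534). Without control 1 or control 3 the adjusted p was 0.0253 and 0.0285. The fits without control 2 or either loss library, in which Fmod lost its call, are not given here for Comp.

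Of 18 tested elastic fibre genes 0 rose and 1 fell, with a median log2 fold change of -0.13. There were 4 non-overlapping and lower (22.2%) and 2 non-overlapping and higher (11.1%). Eln, which encodes elastin, held 34559, 34700 and 30602 normalized counts in the controls and 18408 and 20471 after loss (log2 fold change -0.78, adjusted p = 0.0529). Lama2, a laminin chain of basement membranes from the matrix glycoprotein list, held 9536, 9631 and 7663 against 5280 and 4415. Its log2 fold change was -0.88 (adjusted p = 0.0507, and 0.0239 without control 3, with the other such fits not given here). Neither gene overlapped between the groups. The called elastic fibre gene was Fbln2 (fibulin-2), whose level cannot be compared with the other tables. Its control mean was 1912 normalized counts in these libraries, but 112573 and 173055 in the tables of the uninjured and gain experiments. Within the infused table it held 1938, 1579 and 2219 against 228 and 156 (9.99-fold lower, adjusted p = 0.00124).

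**Figure D2:**
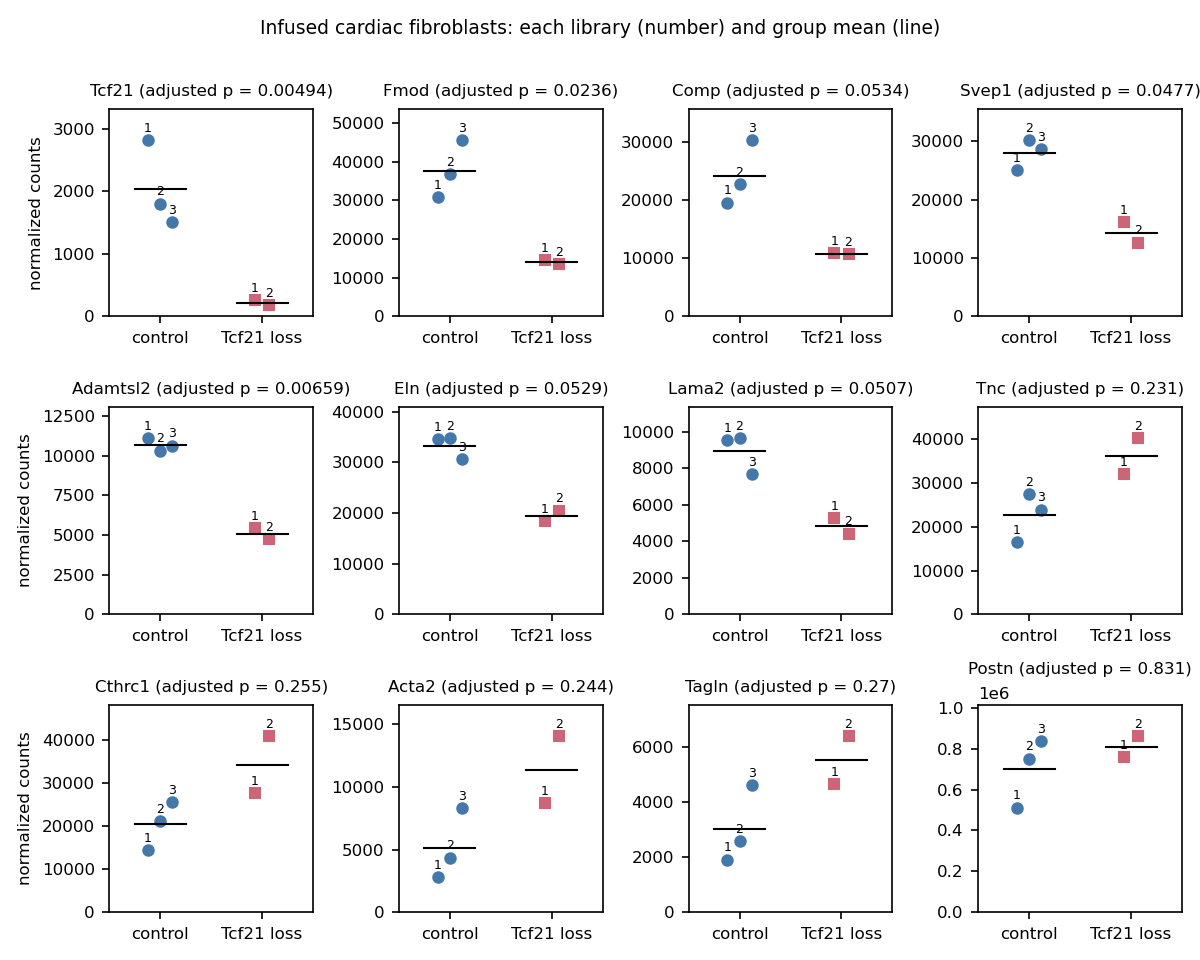
Each panel shows 1 gene, with normalized counts on the vertical axis (from 0), circles for the 3 control libraries, squares for the 2 loss libraries, their replicate numbers, and a line at each group mean. Tcf21, Fmod, Comp, Svep1, Adamtsl2, Eln and Lama2 are lower in both loss libraries than in every control, and Tnc, Cthrc1, Acta2 and Tagln are higher, with wide spread among the controls for Acta2 and Tagln. Postn overlaps between the groups.

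Fibrillar collagens and the enzymes that mature them did not pass. Of 37 tested collagen chain genes 0 rose and 0 fell (median log2 fold change -0.08), with 4 non-overlapping and higher (10.8%) and 9 non-overlapping and lower (24.3%). Col1a1, the main chain of type I collagen, held 593275, 614754 and 672282 normalized counts in the controls and 733980 and 960990 after loss (log2 fold change 0.42, 95% interval -0.58 to 1.42, adjusted p = 0.649). Col3a1 had a log2 fold change of 0.20 (-1.13 to 1.52), so that changes of over 2-fold in either direction lie within its interval. Postn, which encodes the matricellular protein periostin of activated fibroblasts, had a log2 fold change of 0.24 (-0.85 to 1.32). Among 33 tested genes of collagen modification and crosslinking, such as prolyl and lysyl hydroxylases and lysyl oxidases, 0 passed, while 26 lay above the control mean and 13 (39.4%) were non-overlapping and higher (median 0.25). Loxl1, a lysyl oxidase that acts on elastin, held 31230, 30408 and 30794 against 35982 and 37214 normalized counts (adjusted p = 0.349).

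Of 42 tested matrix proteases and their inhibitors 0 rose and 1 fell, the already described Adamtsl2, which is grouped there by family. Adamts1, an active protease that cleaves versican and other proteoglycans, held 14079, 16825 and 13013 normalized counts against 8532 and 9083 (log2 fold change -0.73, adjusted p = 0.0741). Chsy3, an enzyme that builds chondroitin sulfate chains, rose from 510, 613 and 639 to 1491 and 1600 normalized counts (2.64-fold, adjusted p = 0.00609). It was on no list and was chosen after its values were seen, and its call was lost without loss library 1 (adjusted p = 0.0674) or loss library 2 (0.0979).

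No gene on the lists of the activated and the contractile fibroblast state rose past the threshold, and the controls themselves were spread along the same genes. Of 38 tested smooth muscle contractile genes, 0 rose and 0 fell, 24 lay above the control mean and 15 (39.5%) were non-overlapping and higher (median log2 fold change 0.28). Acta2, the smooth muscle actin of myofibroblasts, held 2804, 4365 and 8281 normalized counts in the controls and 8728 and 14018 after loss. The groups did not overlap, but control 3 lay close to loss library 1. Its log2 fold change was 1.25 (95% interval 0.21 to 2.28, adjusted p = 0.244). Tagln, an actin-binding protein of smooth muscle, held 1909, 2582 and 4621 against 4655 and 6380 normalized counts (adjusted p = 0.27).

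Of 31 tested activated fibroblast and matrifibrocyte genes, 0 rose and 1 fell, which was Fmod, and the median was 0.11. There were 19 above the control mean (61.3%), and 5 were non-overlapping and higher, a share of 16.1% that is near the 17.3% of all genes. Cthrc1 and Tnc are among these 5. Cthrc1, a secreted protein of activated fibroblasts, held 14555, 21264 and 25576 normalized counts against 27710 and 40939 (log2 fold change 0.76, adjusted p = 0.255). Tnc, which encodes tenascin-C, held 16538, 27405 and 23935 against 32054 and 40144 (log2 fold change 0.70, adjusted p = 0.231). Meox1, a transcription factor of activated fibroblasts, overlapped at 9269, 8214 and 8717 against 8975 and 8246 (log2 fold change -0.02, 95% interval -0.26 to 0.22).

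Among 37 tested genes of resting and adventitial fibroblasts, 0 rose and 1 fell, which was Tcf21 itself. There were 31 members below the control mean and 7 non-overlapping and lower (18.9%, near the 17.7% of all genes), and the median was -0.33. Leaving out single libraries gave medians of -0.56 to -0.17. The controls differed among themselves by more: relative to the control mean, the median over members was 0.48 in control 1, -0.04 in control 2 and -0.44 in control 3, against -0.17 and -0.56 in the loss libraries. Gsn, which encodes gelsolin, showed this spread, with 604113, 238214 and 118572 normalized counts in the controls and 181674 and 97470 after loss (adjusted p = 0.515). Pdgfra, the receptor that marks cardiac fibroblasts, held 26502, 18519 and 14013 against 13349 and 11044 normalized counts (log2 fold change -0.65, 95% interval -1.26 to -0.03, adjusted p = 0.291). Of 21 tested complement genes, which resting fibroblasts express strongly, 0 passed, with a median of -0.43. The medians relative to the control mean were 0.27, -0.12 and -0.27 in the controls and -0.38 and -0.43 in the loss libraries, both below every control, and 5 members (23.8%) were non-overlapping and lower.

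**Figure D3:**
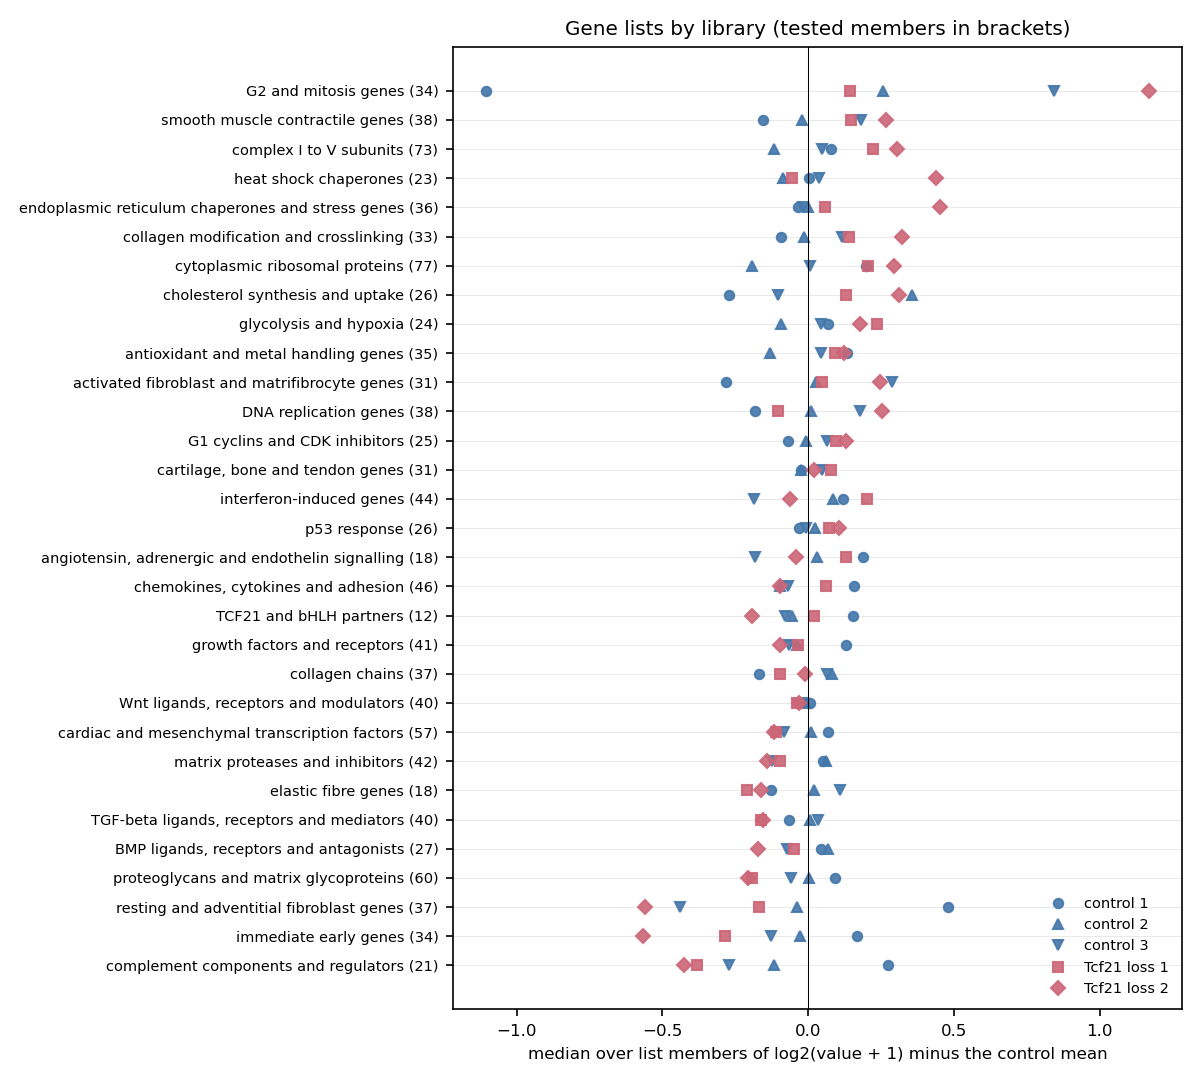
Each row is a gene list (tested members in brackets), ordered by its median log2 fold change, and each symbol is 1 library, placed at the median over members of log2(value + 1) minus the control mean. Control 1 and control 3 lie far apart for the resting fibroblast genes (0.48 and -0.44) and the mitosis genes (-1.10 and 0.84), while for complex I to V subunits both loss libraries (0.22 and 0.30) lie above all 3 controls.

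Among genes of the receptors and signalling routes that the infused agents use, none that was tested passed. The adrenergic receptor genes Adra1a, Adra1b, Adrb1 and Adrb3 were under the filter and were not tested, nor were Agtr2 and Mas1. Agtr1a, the main angiotensin II receptor of mouse tissue, held 191, 120.1 and 101 normalized counts in the controls and 101 and 55.5 after loss (log2 fold change -0.82, adjusted p = 0.337). Of 18 tested genes of angiotensin, adrenergic and endothelin signalling, 0 passed, with a median of -0.01. In this list 7 members (38.9%) were non-overlapping and higher and 3 (16.7%) non-overlapping and lower. Agt, which encodes the angiotensin precursor, held 31.0, 24.9 and 37.8 normalized counts in the controls and 61.1 and 77.5 after loss (a ratio of 2.20, adjusted p = 0.176). Ednra, an endothelin receptor, held 2572, 2738 and 2272 against 3001 and 2990 normalized counts (log2 fold change 0.25, adjusted p = 0.311). Rcan1 and Rgs2, which are inhibitors of calcineurin and of G protein signalling, were also non-overlapping and higher, with log2 fold changes of 0.32 (adjusted p = 0.27) and 0.76 (0.307). Of 40 tested TGF-beta ligands, receptors and mediators, 0 rose and 0 fell, 15 (37.5%) were non-overlapping and lower and 7 (17.5%) were non-overlapping and higher (median -0.15). Ltbp1, which tethers latent TGF-beta to the matrix, held 11882, 11854 and 10894 against 8538 and 7622 (log2 fold change -0.52, adjusted p = 0.0886). The opposite direction was seen for Fst, the activin antagonist follistatin, at 820.2, 856 and 1142 against 1574 and 3323 (a ratio of 2.46, adjusted p = 0.142). Of 27 tested BMP genes and 40 tested Wnt genes, 0 passed in either list.

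Immediate early genes, whose transcription is switched on soon after a stimulus such as tissue handling, lay lower after loss without passing. Of 34 tested members, 0 passed, 30 lay below the control mean and 21 (61.8%) were non-overlapping and lower (median -0.39, or -0.56 to -0.29 with 1 library left out). Nr4a1, an orphan nuclear receptor, held 12895, 13289 and 12055 normalized counts in the controls and 8169 and 5836 after loss (log2 fold change -0.88, adjusted p = 0.0643). Dusp1, a phosphatase of MAP kinases, held 40764, 38902 and 33362 against 22671 and 21140 (adjusted p = 0.0678). Both genes separate the groups completely. Sik1, a kinase gene that is itself rapidly inducible but was not on the list, fell from 984, 1039 and 727 to 231 and 187 (4.35-fold, adjusted p = 0.00568), a call lost without loss library 1 (0.0537) or loss library 2 (0.0796).

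Among cell cycle genes, 2 regulators of the G1 phase rose and 1 replication gene fell. Of 25 tested G1 cyclins and CDK inhibitors, 2 rose and 0 fell (median 0.08). Ccnd1, which encodes the growth-promoting cyclin D1, held 843, 802 and 943 normalized counts in the controls and 1640 and 1616 after loss. It was 1.89-fold higher (log2 fold change 0.92, SE 0.106, adjusted p = 0.0162). Cdkn2b, which encodes the CDK4 and CDK6 inhibitor p15, held 643, 675 and 752 against 1184 and 1292 (1.80-fold higher, adjusted p = 0.0301). These genes act against each other on the same kinases, and neither overlapped between the groups. Both calls were lost without control 2 (adjusted p = 0.104 for Ccnd1 and 0.162 for Cdkn2b), loss library 1 (0.115 and 0.122) and loss library 2 (0.163 and 0.245), and that of Cdkn2b also without control 1 (0.0511).

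Of 38 tested DNA replication genes, 0 rose and 1 fell. That gene, Mcm6, encodes a subunit of the replicative helicase, and it held 1861, 1877 and 2114 normalized counts in the controls and 647 and 708 after loss (2.88-fold lower, adjusted p = 0.00172), a call kept with each library left out in turn. All 34 tested G2 and mitosis genes lay above the control mean (median 0.64), but none was non-overlapping and none passed. Mki67, a marker of dividing cells, held 304, 859 and 1316 normalized counts in the controls and 643 and 1261 after loss (adjusted p = 0.8). The median of the list was 0.08 without control 1 and 1.17 without loss library 1.

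Subunits of the respiratory chain and ribosomal proteins lay slightly above the control mean as groups. Of 73 tested complex I to V subunits 0 passed, yet 72 lay above the control mean and 56 (76.7%) were non-overlapping and higher (median 0.26, or 0.21 to 0.30 with 1 library left out). Cox6c, a subunit of cytochrome oxidase, held 2128, 1785 and 2049 normalized counts against 2888 and 2943 (log2 fold change 0.56, adjusted p = 0.0793). Of 77 tested cytoplasmic ribosomal proteins 1 rose, 1 fell and 73 lay above the control mean (median 0.25). Relative to the control mean, the medians over these members were 0.20, -0.19 and 0.01 in the controls and 0.21 and 0.30 in the loss libraries. Control 1 thus lay close to loss library 1. The genes of both lists have short transcripts, and transcript length moved with the fold change over all genes: Spearman's rho was -0.251 across 13333 genes, which share the same 5 libraries. The longest annotated transcript had a median of 1141 bases for the respiratory list, 1059 bases for the ribosomal list and 3357 bases for all genes. The part of length in these medians was not tested.

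The 2 ribosomal genes that passed have near-identical copies, so that their counts are uncertain. Rpl26 held 2175, 1659 and 1875 normalized counts in the controls and 29.8 and 41.6 after loss (52.2-fold lower, adjusted p = 0.000113). No sum with a copy is given here for Rpl26, and the part of copies in its fall was not tested. Rps18 rose from 1846, 1424 and 1755 to 2872 and 3178 (1.81-fold, adjusted p = 0.0467, and 0.0542 to 0.344 without any library other than control 1), while its pseudogene Rps18-ps4 fell from 852, 699.8 and 824 to 106 and 113. Summed over gene and pseudogene, the values were 2698, 2124 and 2579 against 2978 and 3292, a log2 difference of 0.35. Gpr137b and its pseudogene also moved in opposite directions, and their sums were 1972, 1602 and 1691 against 2524 and 2347. Hmga1, a chromatin protein of dividing cells, was 5.15-fold lower. However, its copy Hmga1b held 128 normalized counts in control 1, 2.96 and 3.91 in the other controls and 130.1 and 124 after loss. The sums of Hmga1 and Hmga1b were 308, 254 and 205 against 172 and 162. This is a log2 difference of -0.59, with both loss libraries below every control.

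Outside these groups, the genes with the largest rises were of unlike function. Erlec1, an endoplasmic reticulum lectin that takes part in the disposal of misfolded glycoproteins, held 530.1, 501 and 540.4 normalized counts in the controls and 3247 and 3145 after loss (6.09-fold higher, SE 0.093 on the log2 scale, adjusted p = 0.000113). Pam, which encodes the enzyme that amidates secreted peptides, held 967, 376 and 691 against 4938 and 4670 (7.60-fold higher, adjusted p = 0.0202). Chi3l1, a secreted chitinase-like protein linked to tissue remodelling, held 118, 82.2 and 90.7 against 885 and 645 (7.80-fold higher, adjusted p = 0.00306). None of the 3 overlapped between the groups. The call of Erlec1 was kept with each library left out, that of Pam was lost without loss library 1 (0.147) or 2 (0.2), and that of Chi3l1 without loss library 1 (0.0551).

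Sema7a, a membrane-anchored semaphorin that signals through integrins, rose 5.37-fold from 207, 344 and 396 to 1338 and 2005 normalized counts (adjusted p = 0.0228, and 0.109, 0.0837 and 0.222 without control 2, loss library 1 and loss library 2). Pim1, a serine/threonine kinase that promotes survival, rose 4.03-fold from 324, 226 and 213 to 1096 and 930.2 (adjusted p = 0.00945, and 0.0665, 0.104 and 0.105 without the same libraries). Other rises named by the rule were of Tmem37, Fhod3, Adat2, Ptprv, Ocel1, Mon2 and Ugt1a6b, at 3.23-fold (Mon2) to 53.3-fold (Ugt1a6b, which shares exons with its neighbours and is therefore uncertain).

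The largest falls included genes with and without a known place in fibroblasts. Xdh, which encodes the purine-degrading enzyme xanthine dehydrogenase, fell 11.1-fold, from 7457, 3678 and 2930 normalized counts to 554 and 270.1 (adjusted p = 0.0243, and 0.123, 0.0769 and 0.206 without control 2, loss library 1 and loss library 2). Control 1 was high for this gene, as for Tcf21. Gabra3, a GABA receptor subunit of neurons, fell 21.7-fold from 2222, 1885 and 2275 to 107 and 87.1 (adjusted p = 0.000113). Tspan3, a tetraspanin of the plasma membrane, fell 4.69-fold from 8197, 8115 and 8495 to 1791 and 1736 (adjusted p = 0.000113). Zc3hav1, an antiviral RNA-binding protein, fell 4.51-fold (adjusted p = 0.00222). The calls of Gabra3, Tspan3 and Zc3hav1 were kept with each library left out. Zfp973, a zinc finger gene, was listed at 0 in both loss libraries and held 102, 66.5 and 129 normalized counts in the controls. The other falls named by the rule and not described elsewhere were of Npy4r, Arhgap22, Zfp969 and Zfp1009, at 4.62-fold (Zfp1009) to 10.3-fold (Npy4r).

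Stress and interferon genes gave few calls. Dnajb1, an HSP40 co-chaperone, fell 1.60-fold from 4147, 3707 and 3967 to 2353 and 2576 normalized counts (adjusted p = 0.0334), the 1 call among 23 heat shock chaperones, and the call was lost whichever library was left out (adjusted p of 0.0576 to 0.177). The list as a whole did not follow it, with 18 of 23 above the control mean and a median of 0.26, and 1 member non-overlapping and higher (4.35%). Of 36 tested endoplasmic reticulum chaperones and stress genes, 0 passed, 29 lay above the control mean and 15 (41.7%) were non-overlapping and higher (median 0.25). The 2 loss libraries differed in these lists: the medians relative to the control mean were -0.05 and 0.44 for heat shock chaperones and 0.06 and 0.45 for endoplasmic reticulum genes. Of 44 tested interferon-induced genes, 1 rose and 1 fell, at a median of 0.06. Mx2, an antiviral GTPase, rose 2.68-fold from 76.0, 100.3 and 85.0 to 266 and 206 (adjusted p = 0.0477), again lost whichever library was left out (0.0652 to 0.212). Irgm2, an interferon-inducible GTPase of cell-autonomous immunity, fell 2.10-fold from 2519, 2555 and 1991 to 1229 and 1006 (adjusted p = 0.0323), and was called without control 3 but in none of the other 4 such fits (0.0591 to 0.245). Of the 31 pathway lists, 17 had no called member.

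Markers of other cell types were low beside the fibroblast markers, and some of them moved with the groups. Myeloid markers summed to 1337, 1595 and 1533 normalized counts in the controls and 820.5 and 1096 after loss, over 21 of 25 genes listed. Of 19 tested, 0 rose and 1 fell, and 18 lay below the control mean (median -0.69). The call was Cd74, the invariant chain of MHC class II, at 234, 352 and 182 against 62.1 and 39.5 (4.90-fold lower, adjusted p = 0.0398). It was lost without control 1 (0.0687), control 2 (0.151), loss library 1 (0.111) and loss library 2 (0.275). Erythroid and platelet markers summed to 71.1 to 78.6 in the controls and to 504 and 183 after loss. Hba-a1, a haemoglobin gene with a near-identical copy, held 2.96, 4.06 and 6.91 against 152 and 52.0 (adjusted p = 0.038, and 0.0591 to 0.162 without any library other than control 3). Of 17 tested endothelial markers 0 passed (sums of 12748 to 17103 in the controls, 14328 and 13503 after loss). The levels in this list were uneven: Eng and Tek had control means of 5375 and 5053, and Pecam1, Kdr and Tie1 of 62.2, 35.7 and 12.1. No listed marker of these 3 lists was at 0 in all libraries. The part of these cells in the other results was not tested.

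The same deletion was also measured in uninjured hearts, 2 weeks after tamoxifen, in 3 loss and 3 control libraries of a separately normalized table, so that only the effects within each table were set side by side. Of the 135 genes called during infusion, 123 were tested in the uninjured table, where 531 of 14130 tested genes (3.76%) were called. There 43 of them were called too, all 43 in the same direction. Xdh had log2 fold changes of -3.48 and -2.97 in infused and uninjured hearts, Erlec1 of 2.61 and 2.29, Gabra3 of -4.44 and -5.23, and Tcf21 of -3.17 and -2.49.

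The difference of the loss effect between infused and uninjured hearts passed for 21 of 14130 genes (0.149%), and 13 of these were among the genes called during infusion. Comp showed opposite signs: its log2 fold change was -1.14 during infusion and 1.09 in uninjured hearts, a difference of -2.24 (95% interval -2.74 to -1.73, adjusted p = 0.00157). Fmod had a similar pair of values, -1.41 and 0.85, whose difference did not pass (-2.26, adjusted p = 0.1). Adamtsl2 (-1.07 and -0.34, difference adjusted p = 0.225) and Svep1 (-0.97 and -0.42, 0.491) also did not pass. Mcm6 had log2 fold changes of -1.52 during infusion and 0.02 in uninjured hearts (difference adjusted p = 0.000722). Mgll, the lipase that breaks down monoacylglycerols, was 3.35-fold higher during infusion, from 730.5, 551 and 632 to 2072 and 2183 normalized counts. Its log2 fold changes were 1.75 and -0.22 (difference adjusted p = 0.00044), and its call during infusion was lost without loss library 1 (0.0537) or 2 (0.0647).

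**Figure D4:**
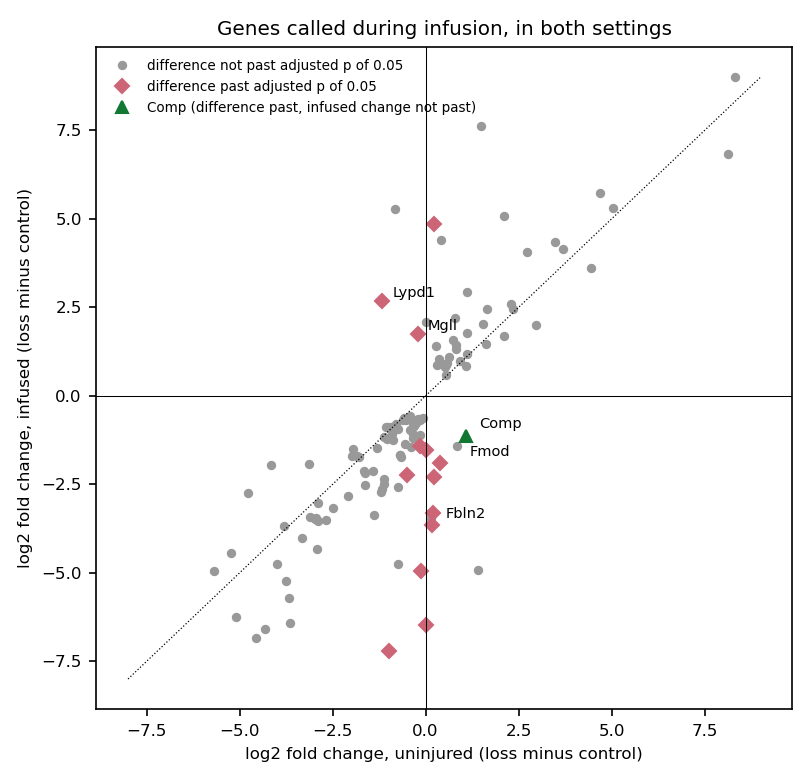
Each point is a gene called during infusion and tested in both tables, with its log2 fold change in uninjured hearts on the horizontal axis and in infused hearts on the vertical axis, and the dotted line marks equal values. Diamonds mark the 13 genes whose effects differed past the adjusted threshold, and the triangle is Comp, at 1.09 in uninjured and -1.14 in infused hearts.

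The called genes were unevenly placed along the genome. Positions from GENCODE vM21 were matched by symbol for 13333 tested genes, of which 116 were called (0.87%). Chromosomes 1 and 17 had 18 and 13 called genes (2.3% and 2% of those tested), and chromosomes 3 and 19 had 0. All 18 called genes of chromosome 1 lay between Trak2 and Elf3 (58900449 to 135258568, GRCm38), where 5.88% of 306 tested genes were called. Fmod, Mcm6, Lypd1, Pam and Stk25 are among them. In uninjured hearts 16 of 294 genes of this stretch (5.44%) were called. The share over all genes differed between the tables, at 3.76% of 14130 in uninjured hearts and 0.87% of 13333 during infusion. On chromosome 2, a cluster of zinc finger genes (175129493 to 177012787) had 10 of 17 tested genes called, all lower, against 1 of 17 (5.88%) in uninjured hearts. These genes are similar in sequence, so that their counts are uncertain. On chromosome 17, 10 of 181 genes between Hmga1 and H2-Bl (27556497 to 36084223) were called (5.52%), among them Pim1, Sik1 and Rps18. In uninjured hearts it was 9 of 181 (4.97%), near the 3.76% of all genes there. On chromosome 14, 4 of 23 genes between Sh3bp5 and Npy4r (31359880 to 34152489) were called (17.4%), all lower, with Arhgap22 and Npy4r among them, against 5 of 20 (25%) in uninjured hearts. The targeted gene lay in a stretch of chromosome 10 (13552894 to 22820174) with 3 of 32 genes called (9.38%, and 3 of 31 in uninjured hearts), which were Adat2, Hebp2 and Tcf21. These stretches were chosen after the values were seen and carry no test. Each begins and ends at a called gene, a choice that raises its share called. The labels give no strain, and the bearing of position on these calls was not tested.

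**Figure D5:**
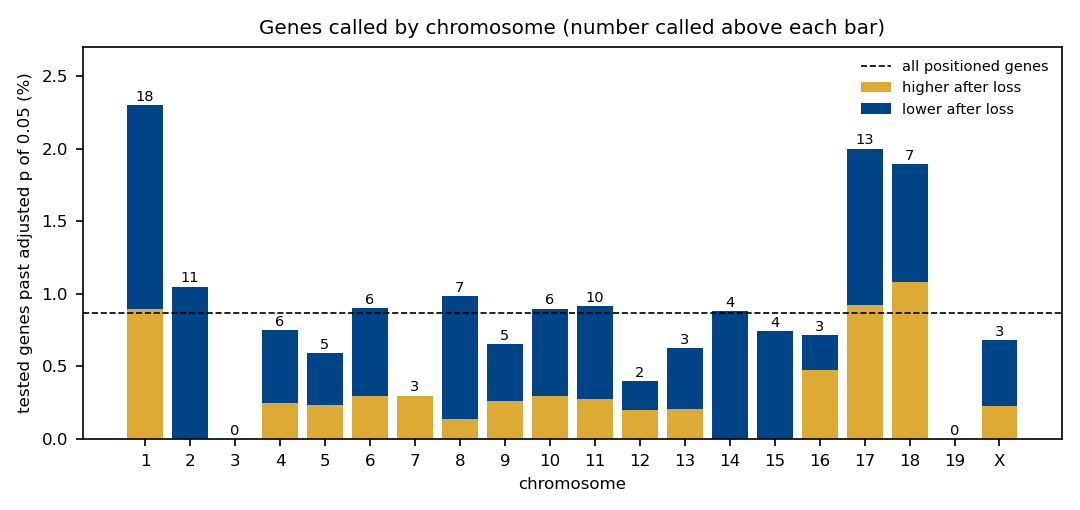
Bars give the share of tested genes past an adjusted p of 0.05 on each chromosome (percent), split into genes higher and lower after loss, with the number called above each bar and a dashed line at the 0.87% of all positioned genes. Chromosomes 1 and 17 stand at 2.3% and 2%, and chromosomes 3 and 19 have no called gene.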

How the data were processed

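RNA of sorted mouse cardiac fibroblasts was amplified with a low-input SMART-seq V4 kit, per the labels' protocols. The authors deposited a normalized signal: estimated counts after division by a factor for each library, set in each table apart, as the values and the table names show. The submitters' processing notes list kallisto, DESeq2 and the build GRCm38. Their versions and the annotation: not given in the sources used here. Of the low values, 51.5% to 66.1% per library lay on whole read steps (tolerance 0.03 of a step), too few to recover reads, so a count model was not used.

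The labels gave the groups. limma 3.58.1 (R 4.3.3) was run on log2(value + 1), a pseudocount of 1, for genes whose mean over the 5 libraries reached 10, with trended eBayes, two-sided tests and a Benjamini-Hochberg threshold of 0.05 over all genes tested. The difference between infused and uninjured hearts was an interaction contrast over 11 libraries. The 31 pathway and 10 marker lists are described by counts and medians. The members and lists were chosen with earlier results of these data known. In the series' 3 tables, 204 shared genes were held over 8-fold lower and 6 over 8-fold higher here than in both others, and 5 of these were called.

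Genes were named by rule: a panel of 10, then at most 15 rises and 15 falls, the largest among called, non-overlapping genes whose mean reached 50, then the 4 smallest p-values of every list. Others named, Chsy3 and further list members included, were chosen after their values were seen. The promoter rule, in order of p, would have shown Gabra3, Rpl26, Tspan3 and Fbln2, and 2 of the 4 called matrix genes, Adamtsl2 and Fmod, were shown in their place, also after their values were seen. Fbln2 and Svep1, whose window overlaps its gene, are not shown. Tests were checked on simulated data, and the settings and outcome of that check are not given here. Alternatives varied the pseudocount, filter, scaling, variance model, library weights, replicate block and libraries. Not every gene taken by the naming rule is reported here.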

Additional observations from a re-analysis of the deposited data

Results flagged for a closer look

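Among the named genes, 7 had a loss effect that differed between infused and uninjured hearts by a test of the difference itself (limma interaction contrast on log2(value + 1), adjusted over 14130 genes). The difference, infused minus uninjured, was -2.24 for Comp (adjusted p = 0.00157, and 0.00106 to 0.0153 over 13 alternatives), -1.55 for Mcm6 (0.000722), -1.72 for Tspan3 (0.00044), 1.96 for Mgll (0.00044) and 3.84 for Lypd1 (0.00153). Each of these 5 stayed past the threshold in all 13 alternatives run.

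Cd74 differed by -2.53 (adjusted p = 0.0389), which did not pass in 4 of 13 alternatives: without the variance trend, and without control 1, control 2 or loss library 2 (adjusted p up to 0.152). Fbln2 differed by -3.51 (adjusted p = 0.000103), but its level in the infused table is unlike that in the other tables. Lypd1, a GPI-anchored receptor-binding protein, rose from 68.0, 81.9 and 85.2 to 425 and 599.5 normalized counts during infusion (log2 fold change 2.68) and had a log2 fold change of -1.16 in uninjured hearts.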

How the results depend on the processing

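The 135 called genes became 72 without the variance trend (64 of the 135 called again), 308 with library weights (all 135 among them), and 32 to 175 with 1 library left out, where a lone loss library is assumed to vary like the controls. With the replicate block it was 1462, as described next, and the remaining alternatives gave 93 to 169. The 21 genes whose effect differed between infused and uninjured hearts became 17 to 57 with 1 infused library left out (57 without loss library 1) and 16 to 27 otherwise. Meox1, which was not called (log2 fold change -0.02), changed sign to 0.027 with library weights, and was -0.081 to 0.041 with 1 library left out (0.024 without control 1 and 0.041 without loss library 2). The cause was not tested. Of the 40 called among the named genes, 19 lost the threshold without the variance trend, 20 without control 2, and 27 without loss library 1 and 27 without loss library 2.

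The labels do not say that same-numbered libraries are paired. Deviations of same-numbered libraries correlated at 0.176 and -0.0425. With 2 loss libraries the deviations are exact opposites of each other, so these values cannot decide whether the samples are paired. The replicate block leaves 1 residual degree of freedom, and the 1462 genes called with it held 135 of the 135. Depth in reads is unknown, since the values are normalized.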
